A study of Mus musculus with 20 samples.

Results

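Dasatinib, the D of the senolytic cocktail D + Q, blocks a set of tyrosine kinases, and the 10 described here are the genes of its best known targets: the SRC family kinases Src, Fyn, Yes1 and Lyn, the ABL kinases Abl1 and Abl2, the platelet-derived growth factor (PDGF) receptors Pdgfra and Pdgfrb, the stem cell factor receptor Kit and the collagen receptor Ddr2. They were picked by name from the drug's known pharmacology, with no threshold on a measured value although earlier results of these data were known, and all 10 had a row among the 22660 genes of the deposited table. RNA was measured in whole plantaris muscle of 20 male C57BL/6J mice labelled 2 years old, in groups of 5 that combined a surgery (sham or MOV) with a gavage (vehicle or D + Q). MOV is mechanical overload of the plantaris, made by cutting away part of its synergists, the gastrocnemius and soleus, whereas in sham surgery only the skin was opened. On days 7 and 10, D + Q mice were gavaged with dasatinib at 5 mg/kg together with quercetin, a plant flavonoid, at 50 mg/kg, vehicle mice received vehicle, and muscles were taken on day 14. For sham mice the series' own text gives day 14 as the second gavage, so the time between the last dose and collection is uncertain in the sham groups. The groups are different animals, and quercetin was always given with dasatinib, so the part of each drug cannot be told apart.

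Dasatinib binds in the ATP pocket of the kinase domain, beside a position called the gatekeeper, where a small residue such as threonine leaves room for the drug. SRC family kinases pass signals from integrins, cytokine receptors and growth factor receptors to the cytoskeleton, and Lyn is best known in blood cells. The ABL kinases shape the actin cytoskeleton, and Abl2 is also called Arg. In skeletal muscle, PDGFRα marks the fibro-adipogenic progenitors that make matrix, PDGFRβ marks the mural cells around capillaries, KIT marks mast cells, and DDR2 binds fibrillar collagen on fibroblasts. Dasatinib acts on these proteins, whereas the values below are of their RNA.

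The stretch of coding sequence around the gatekeeper shows what the 10 kinases share at the site the drug uses. It was found in each canonical GENCODE transcript as isoleucine or valine, threonine, glutamate, tyrosine or phenylalanine, then methionine or cysteine. Each stretch of 30 bases lies within a coding exon and is given 5′ to 3′ on the gene's strand from GRCm39, with the threonine codon in capitals.
Src: cccatttacattgtgACAgagtacatgaac
Fyn: cccatttacatcgtcACGgagtacatgagc
Yes1: cccatttatattgtcACCgagtttatgtca
Abl1: ccattctacataatcACTgagttcatgacc
Abl2: ccgttttacattgtgACTgaatacatgccg
Pdgfra: cccatttacatcatcACAgaatactgcttc
Kit: cccaccctggtcattACAgaatattgttgc
Ddr2: ccgctctgcatgatcACGgaatacatggag
These lie at chr2:157309497-157309526 in Src (codon 340), chr10:39408158-39408187 in Fyn (codon 342) and chr5:32812918-32812947 in Yes1 (codon 346). In the ABL kinases they lie at chr2:31680694-31680723 in Abl1 (codon 334) and chr1:156460670-156460699 in Abl2 (codon 361). The receptors hold them at chr5:75342185-75342214 in Pdgfra (codon 674), chr5:75806498-75806527 in Kit (codon 669) and, on the minus strand, chr1:169812517-169812546 in Ddr2 (codon 654). The pattern allows the residues that the members hold and was required of each, so its presence in 10 of 10 was set in advance. In Pdgfrb it lies at codon 681. It was also present in 14 of 23 other kinases known to bind dasatinib, and in 49 of 21751 protein-coding genes (0.225%). Every residue of the pattern must match, so a kinase without it can still hold a threonine at the gatekeeper. A match is a description of the sequence and no measure of binding.

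Overload changed the RNA of nearly all of these kinases, and D + Q against vehicle called none at the adjusted threshold in edgeR and 1, Fyn in sham muscle, in DESeq2. In vehicle mice, Src, Fyn, Lyn, Pdgfrb, Kit, Pdgfra, Ddr2 and Yes1 rose with MOV and Abl1 and Abl2 fell, which is 8 of 10 higher and 2 lower (edgeR quasi-likelihood test, Benjamini-Hochberg adjusted over 14601 genes). Among all genes tested in that comparison 30.7% were higher and 29.8% lower, and the median log2 fold change was 1.20 over the members and -0.016 over all genes. With D + Q, 8 members rose and 1, Abl2, fell, against 34.4% and 30.9% of the 14913 genes tested, with medians of 1.09 and 0.023. Kit is 1 of the 8 in both treatments. Its sham mice alone would not have reached the minimum of 10 counts in 5 mice needed for a test, so its direction was favoured in advance. When libraries were scaled by their total counts alone, which moved the median of all genes to 0.362 in vehicle and 0.388 in D + Q mice, the calls became 8 higher and 0 lower in vehicle mice and 10 higher and 0 lower in D + Q mice. All 5 MOV mice lay above all 5 sham mice for 6 members, Kit among them, in vehicle mice, where 23.8% of genes did so and 22.6% did the opposite. With D + Q, 7 members lay above and 1 lay below without overlap, against 26.5% of genes in each direction.

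CPM below are counts of a gene scaled by the TMM-adjusted total of its library, in mice 1 to 5 of a group in that order. In bulk muscle, fewer cells of a type and less RNA per cell cannot be told apart.

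**Figure D1:**
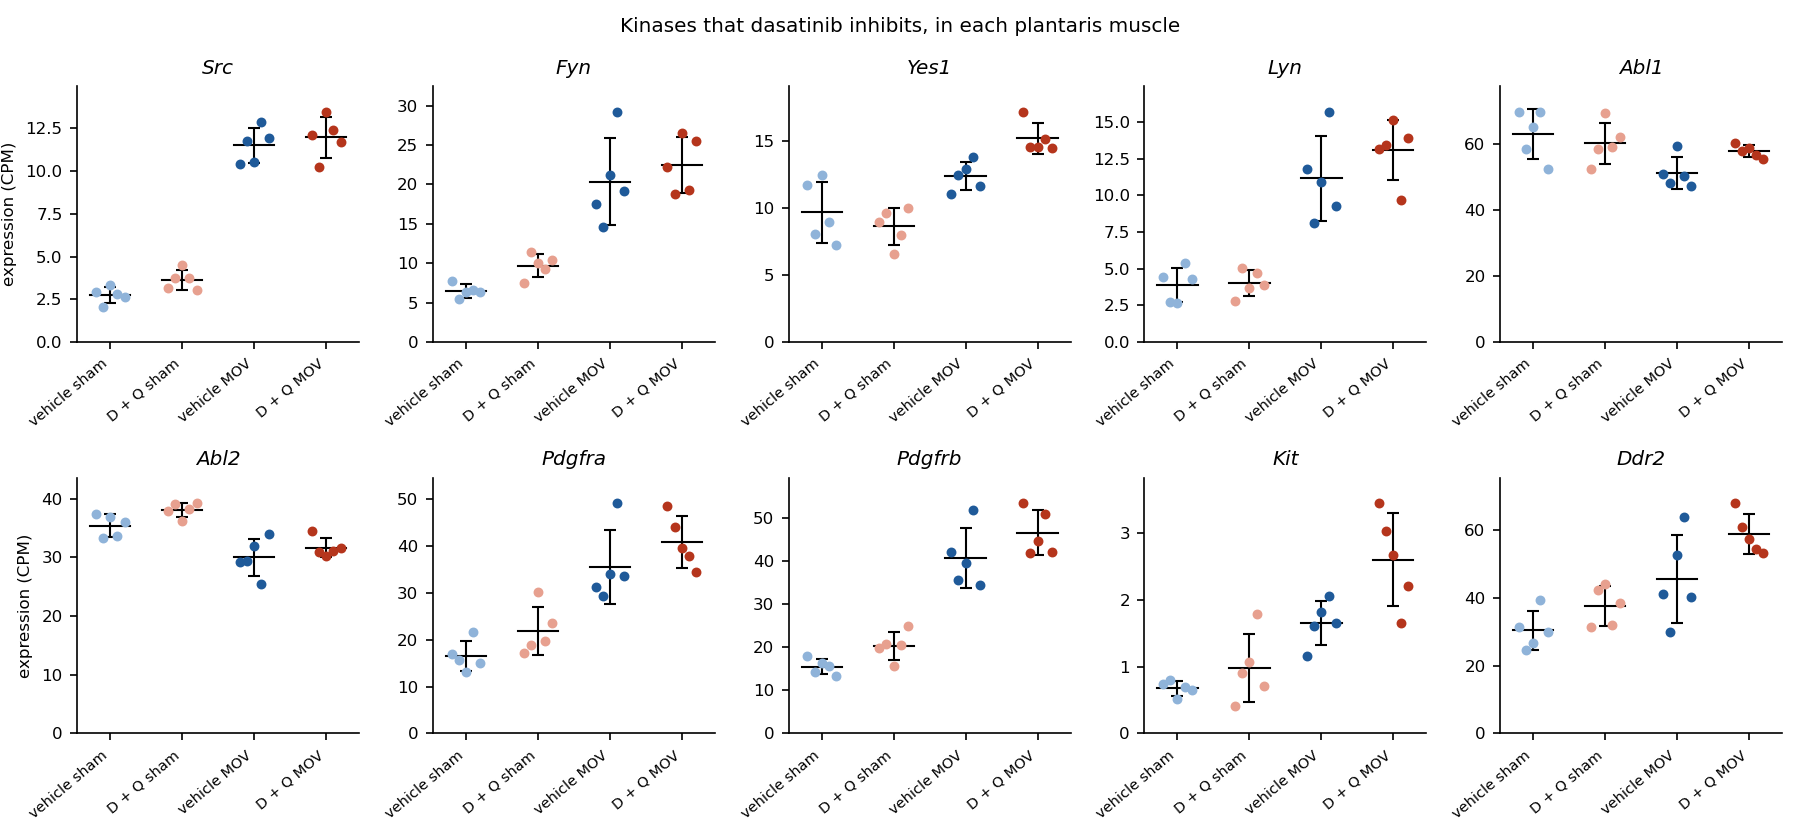
Expression of the 10 kinases in CPM on axes that start at 0, with 1 point per mouse, bars for the group mean and whiskers for the SD (n = 5 per group). Src, Fyn, Lyn, Pdgfra and Pdgfrb lay higher in every MOV mouse than in every sham mouse of the same treatment, whereas Abl1 and Abl2 did not rise on this scale.

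Src, the founding member of its family, showed the largest fold change of the 10 with MOV, although Lyn nearly equalled it in D + Q mice (1.75 ± 0.153 on the log2 scale). The gene lies at chr2:157260355-157313782 on the plus strand of GRCm39. Its level was 2.94, 2.07, 3.31, 2.78 and 2.64 CPM in vehicle sham mice and 10.4, 11.8, 10.5, 12.9 and 11.9 CPM in vehicle MOV mice. With D + Q it was 3.14, 3.72, 4.53, 3.74 and 3.05 CPM in sham and 12.1, 10.2, 13.5, 12.4 and 11.7 CPM in MOV mice. The lowest MOV mouse of either treatment was more than 2-fold above the highest sham mouse. The log2 fold change was 2.07 ± 0.138 (SE, adjusted p = 1.97e-08 in edgeR), or 4.20-fold, in vehicle mice and 1.76 ± 0.127 (adjusted p = 2.09e-09), or 3.38-fold, in D + Q mice.

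Fyn, which signals from immune receptors and integrins and lies at chr10:39244851-39442227, followed Src in vehicle mice. It measured 7.76, 5.41, 6.31, 6.66 and 6.28 CPM in vehicle sham and 17.6, 14.6, 21.2, 29.2 and 19.2 CPM in vehicle MOV muscle. The D + Q values were 7.48, 11.4, 10.0, 9.22 and 10.4 CPM in sham and 22.1, 18.8, 26.5, 19.2 and 25.5 CPM in MOV muscle. MOV and sham mice did not overlap in either treatment, and the vehicle MOV mice were spread widely, with mouse 4 at the top. The log2 fold change was 1.66 ± 0.170 (adjusted p = 1.72e-06, edgeR) with vehicle and 1.25 ± 0.119 (adjusted p = 7.68e-08) with D + Q.

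Lyn, the family member of myeloid and mast cells, lies at chr4:3678061-3813122 and rose in both treatments. Vehicle sham mice held 4.41, 2.76, 2.68, 5.38 and 4.29 CPM and vehicle MOV mice 11.8, 8.13, 10.9, 15.7 and 9.27 CPM. D + Q sham mice held 2.77, 5.06, 3.65, 4.71 and 3.86 CPM and D + Q MOV mice 13.2, 13.5, 15.2, 9.68 and 13.9 CPM. Every MOV mouse was above every sham mouse, by 1.52 ± 0.215 on the log2 scale with vehicle (adjusted p = 3.21e-05, edgeR) and 1.75 ± 0.153 with D + Q (adjusted p = 2.05e-08).

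Yes1, a broadly expressed SRC family kinase at chr5:32768101-32845256, moved less than its relatives. It stood at 11.7, 8.05, 12.4, 8.91 and 7.22 CPM in vehicle sham and 11.0, 12.4, 12.9, 13.8 and 11.6 CPM in vehicle MOV muscle, and these groups overlapped. D + Q sham muscle held 8.95, 9.63, 6.58, 8.01 and 10.0 CPM and D + Q MOV muscle 17.2, 14.5, 14.6, 15.2 and 14.5 CPM, without overlap. On the log2 scale it changed by 0.36 ± 0.143 (adjusted p = 0.0416, edgeR) with vehicle and 0.86 ± 0.110 (adjusted p = 2.14e-06) with D + Q. The vehicle call was lost without vehicle sham mouse 2, 4 or 5 (adjusted p = 0.103, 0.0859 and 0.108) and without vehicle MOV mouse 3 or 4 (adjusted p = 0.0683 and 0.0708). The deposited Yes1 count was further than 0.05 from a whole number in 18 of 20 mice, so most Yes1 values are estimates and not whole counts of reads, whereas those of Src, Fyn and Lyn were whole in all mice.

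Among the 4 SRC family members, CPM per kilobase of exon gives each member's share of the family. Lyn held the largest mean share in vehicle sham, vehicle MOV and D + Q MOV muscle, at 31.8% ± 7.11 (SD, n = 5), 33.2% ± 3.82 and 34.9% ± 3.50. Yes1 fell from 27.8% ± 5.44 of the family in vehicle sham to 13.2% ± 1.62 in vehicle MOV muscle, and from 21.8% ± 4.17 to 14.3% ± 1.73 with D + Q. The highest MOV mouse of either treatment (16.1%) was below the lowest mouse of either sham group (16.7%). Src took 18.4% ± 2.08 in vehicle sham and 28.5% ± 4.00 in vehicle MOV muscle. The order within the family depends on the length used. With the canonical transcript Fyn held the largest mean share in vehicle MOV and D + Q MOV muscle, at 35.6% ± 3.43 and 35.0% ± 2.41, and Yes1 in vehicle sham muscle, at 34.7% ± 5.73. Yes1 fell with MOV on that length too, to 17.6% ± 2.21 in vehicle mice, although the highest MOV mouse (21.2%) was then not below the lowest sham mouse (21.1%). These shares are a description, without a test, and a share moves whenever another member of the 4 does.

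The ABL kinases did not share in the rise. Abl1, at chr2:31578333-31697112, measured 69.8, 58.4, 65.0, 69.8 and 52.4 CPM in vehicle sham and 50.9, 48.2, 59.5, 50.3 and 47.4 CPM in vehicle MOV muscle, with overlap. In D + Q mice it measured 52.3, 58.3, 69.3, 59.1 and 62.0 CPM in sham and 60.2, 57.8, 58.8, 56.8 and 55.5 CPM in MOV muscle, and the MOV values lay within the sham range. Its log2 fold change was -0.29 ± 0.0910 (adjusted p = 0.0115, edgeR) with vehicle and -0.020 ± 0.0660 (adjusted p = 0.802) with D + Q, and both were positive when libraries were scaled by total counts alone (0.088 and 0.34). Those values lay below the median of all genes on that scaling, 0.362 and 0.388.

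Abl2, at chr1:156386330-156491178, was lower with MOV in both treatments. It stood at 37.4, 33.2, 36.9, 33.6 and 36.0 CPM in vehicle sham and 29.2, 29.4, 31.9, 25.5 and 34.0 CPM in vehicle MOV muscle, where 1 MOV mouse overlapped the sham range. With D + Q it stood at 37.9, 39.0, 36.2, 38.3 and 39.2 CPM in sham and 34.4, 30.9, 30.2, 31.1 and 31.7 CPM in MOV muscle, without overlap. The log2 fold change was -0.23 ± 0.0807 (adjusted p = 0.0208, edgeR) with vehicle and -0.23 ± 0.0578 (adjusted p = 0.00216) with D + Q, and it turned to 0.14 in both with total counts alone. The vehicle call was lost without vehicle sham mouse 3 (adjusted p = 0.0502) or without vehicle MOV mouse 1, 2 or 4 (adjusted p = 0.0631, 0.0622 and 0.0733). Of the exonic bases, 6.16% of Abl2 are shared with Tor3a and 3.35% of Abl1 with Qrfp, both on the opposite strand, and whether counting used strand is not given in the sources used here.

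The ratio of Abl2 to Abl1 within a library does not depend on scaling. Its mean was 0.564 in vehicle sham, 0.585 in vehicle MOV, 0.635 in D + Q sham and 0.548 in D + Q MOV muscle. The D + Q MOV and D + Q sham mice differed by -0.21 on the log2 scale (two-sided exact permutation test, p = 0.0397, adjusted p = 0.317 over 8 ratio tests). The other ABL comparisons gave p = 0.175 or more in the same exact permutation test, whose smallest possible p with 5 mice against 5 is 0.00794.

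Both PDGF receptors rose with MOV. Pdgfra, the receptor of PDGF-A, PDGF-B and PDGF-C chains at chr5:75311994-75358876, measured 17.0, 15.6, 13.2, 21.6 and 15.1 CPM in vehicle sham and 31.2, 29.3, 34.0, 49.2 and 33.6 CPM in vehicle MOV muscle. D + Q sham muscle gave 17.1, 18.8, 30.2, 19.8 and 23.5 CPM and D + Q MOV muscle 48.6, 44.0, 39.6, 37.8 and 34.5 CPM. Neither pair overlapped, and vehicle MOV mouse 4 stood clear of the other 4 mice of its group. The log2 fold change was 1.11 ± 0.156 (adjusted p = 4.90e-05, edgeR) with vehicle and 0.94 ± 0.150 (adjusted p = 0.000175) with D + Q.

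Pdgfrb, the receptor of PDGF-B and PDGF-D at chr18:61178212-61218133, had a tighter spread. Vehicle sham muscle held 18.1, 14.2, 16.3, 15.7 and 13.4 CPM and vehicle MOV muscle 42.2, 35.6, 39.6, 51.8 and 34.6 CPM. The D + Q groups held 19.8, 20.7, 15.7, 20.5 and 25.0 CPM in sham and 53.5, 41.9, 44.7, 51.0 and 42.1 CPM in MOV muscle. Every MOV mouse was above every sham mouse, with a log2 fold change of 1.40 ± 0.116 (adjusted p = 1.57e-07, edgeR) with vehicle and 1.24 ± 0.107 (adjusted p = 9.99e-08) with D + Q. The ratio of Pdgfra to Pdgfrb averaged 1.05 in vehicle sham, 0.864 in vehicle MOV, 1.06 in D + Q sham and 0.875 in D + Q MOV muscle. None of its 4 comparisons passed the exact permutation test (lowest p = 0.111, adjusted p = 0.444).

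Kit, the receptor of stem cell factor at chr5:75735576-75817404, was the rarest of the 10, with as few as 8 reads in a mouse, and its sham mice alone would not have reached the minimum of 10 reads in 5 mice in either treatment. Its level was 0.735, 0.805, 0.510, 0.695 and 0.646 CPM in vehicle sham and 1.17, 1.60, 1.82, 2.06 and 1.65 CPM in vehicle MOV muscle, without overlap. D + Q sham mice held 0.419, 0.914, 1.07, 1.79 and 0.711 CPM and D + Q MOV mice 3.46, 3.03, 2.68, 1.66 and 2.21 CPM, and sham mouse 4 reached into the MOV range. MOV changed it by 1.28 ± 0.264 on the log2 scale (adjusted p = 0.000632, edgeR) with vehicle and 1.44 ± 0.313 (adjusted p = 0.000594) with D + Q. Since Kit reached the minimum only through the MOV mice, this direction was favoured in advance.

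Ddr2, a receptor that collagen itself activates, lies at chr1:169799876-169938331 on the minus strand. It measured 31.5, 24.7, 26.7, 39.5 and 29.8 CPM in vehicle sham and 41.2, 30.0, 52.8, 63.8 and 40.3 CPM in vehicle MOV muscle, which overlapped. With D + Q it measured 31.3, 42.3, 44.0, 32.0 and 38.6 CPM in sham and 68.0, 61.0, 57.3, 54.6 and 53.4 CPM in MOV muscle, which did not. Its log2 fold change was 0.59 ± 0.197 (adjusted p = 0.0228, edgeR) with vehicle and 0.69 ± 0.0980 (adjusted p = 1.85e-05) with D + Q. Its vehicle call was lost without vehicle sham mouse 2 or 3 (adjusted p = 0.0544 and 0.0501) and without the low count filter (adjusted p = 0.0508).

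Vehicle MOV mouse 4 was the highest of its group in 8 of the 10 members and the lowest in Abl2. Without it, 7 members were higher and 1 lower in vehicle MOV than in vehicle sham muscle, with a median log2 fold change of 1.10 (range -0.27 to 2.04). The same mouse held the highest summed levels of fibro-adipogenic progenitor, macrophage and mast cell markers of its group, 2210, 442 and 13.6 CPM. It was also highest in the tenocyte (865 CPM), endothelial (223 CPM) and Schwann cell (40.2 CPM) sums. In the muscle fiber (70690 CPM) and satellite cell (6.30 CPM) sums it was the lowest, and in the mural cell sum (600 CPM) neither. The part of any of these cells in the member values was not tested.

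Whether the response to MOV differed between D + Q and vehicle was tested as an interaction over all 20 mice. None of the 10 members passed at the adjusted threshold (edgeR, lowest adjusted p = 0.809), 2 had an unadjusted p under 0.05, and DESeq2 also called 0. Of 15700 genes, 0.00637% were higher and 0.00637% lower at the adjusted threshold, and 2.54% were higher and 3.17% lower at an unadjusted p under 0.05. The 2 members were Yes1, whose rise was larger with D + Q by 0.46 on the log2 scale (95% interval 0.081 to 0.84, unadjusted p = 0.0194 and adjusted p = 0.809 in edgeR), and Abl1, at 0.24 (interval 0.0013 to 0.47, unadjusted p = 0.0488). Fyn (-0.44, interval -0.90 to 0.017) and Src (-0.35, interval -0.72 to 0.028) had the largest negative differences, and both intervals include 0. The 2 MOV responses share no mice.

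**Figure D2:**
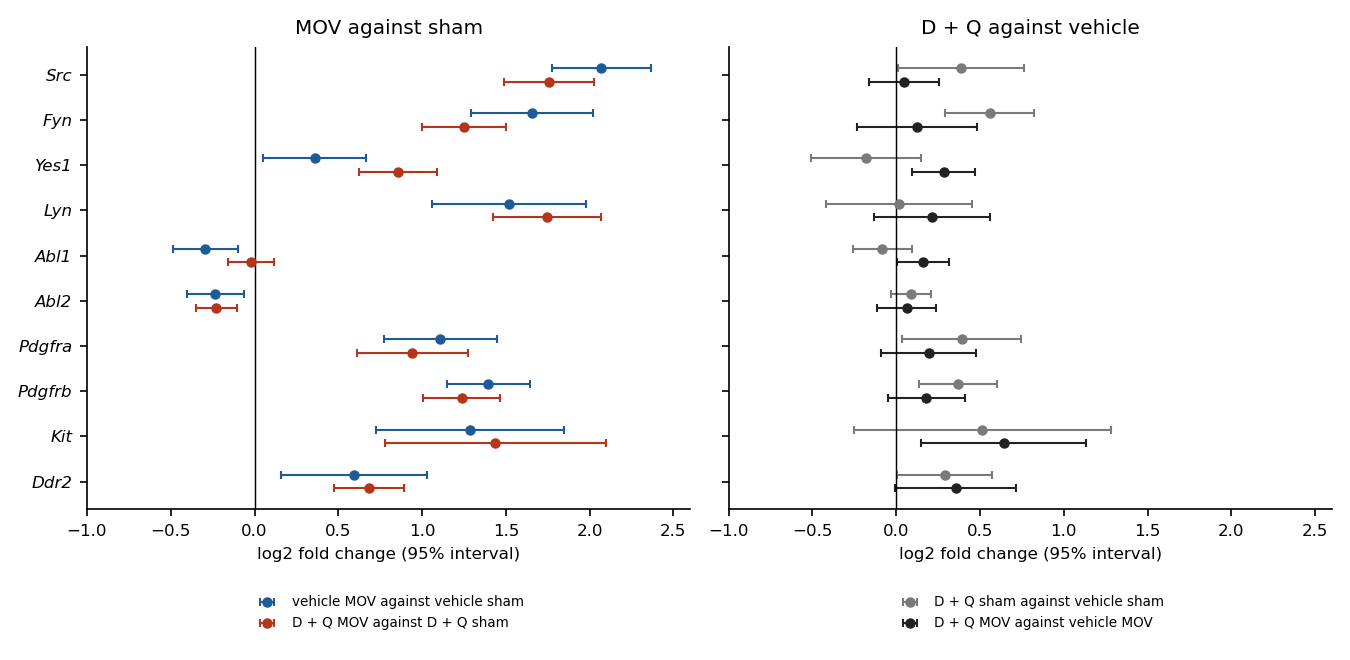
Log2 fold changes of the 10 kinases from edgeR with 95% intervals, for MOV against sham in each treatment on the left and for D + Q against vehicle in each surgery on the right (5 mice in each group). The left panel runs to 2.07 for Src, whereas no point on the right exceeds 0.64, and both panels share 1 scale.

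The next comparison asks whether the drug's target genes differed, some days after the last dose, in overloaded muscle. All 10 members lay on the higher side with D + Q, and 0 passed the adjusted threshold (edgeR, lowest adjusted p = 0.523), as did 0 of 15238 genes tested. DESeq2 called 0 members too, and 11 genes of the whole table. At an unadjusted p under 0.05 there were 3 members, Yes1, Kit and Abl1, all higher, where 4.19% of genes were higher and 4.61% lower. The median log2 fold change was 0.19 over the members and 0.002 over all genes. Yes1 differed by 0.28 ± 0.0880 (SE, unadjusted p = 0.00563, adjusted p = 0.523), and the lowest D + Q MOV mouse was above the highest vehicle MOV mouse, which held for 0.853% of genes, with 0.591% in the opposite direction. Kit differed by 0.64 ± 0.231 (unadjusted p = 0.0143, adjusted p = 0.523), with 4 of 5 D + Q mice above the highest vehicle mouse. Beside Kit, the summed mast cell markers ran from 10.5 to 13.4 CPM with D + Q and from 2.28 to 13.6 CPM with vehicle. Of these 7 markers 5 were tested, all 5 were on the higher side and none passed the adjusted threshold, and Ms4a2 had at most 3 counts in every mouse of both groups. Of the 5 tested, 3 reached the count minimum on the D + Q mice alone but not on the vehicle mice alone. Their direction was therefore favoured in advance and is no result about the list. Some other marker lists leaned higher with D + Q too, and others did not. All 8 fibro-adipogenic progenitor markers were on the higher side, 3 of them at an unadjusted p under 0.05, with sums of 1800 to 2190 CPM against 1010 to 2210 CPM. Of the 8 macrophage markers 7 were on the higher side, 1 at an unadjusted p under 0.05, with sums of 327 to 400 CPM against 151 to 442 CPM. Tenocyte markers gave 4 of 4 on the higher side (1 at an unadjusted p under 0.05), Schwann cell markers 3 of 4 and satellite cell markers 2 of 3. Beside Pdgfrb, the mural cell markers gave 4 of 8 and the endothelial markers 3 of 6, none at an unadjusted p under 0.05. Of the 8 muscle fiber markers 6 were on the lower side, 3 at an unadjusted p under 0.05. None of these passed the adjusted threshold in edgeR, and the part of any of these lists in the member values was not tested.

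None of the 10 passed the adjusted threshold, and for those with an unadjusted p of 0.05 or more the 95% intervals bound what these mice could show. Src lay within -0.16 to 0.25 on the log2 scale and Abl2 within -0.11 to 0.24. The interval of Pdgfrb was -0.048 to 0.41, that of Pdgfra -0.091 to 0.48 and that of Fyn -0.23 to 0.48. For Lyn it was -0.13 to 0.56 and for Ddr2 -0.0051 to 0.71. Without vehicle MOV mouse 4 all 10 remained on the higher side, with a median of 0.30 and none called.

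In sham muscle, D + Q against vehicle again gave 0 members at the adjusted threshold in edgeR, where 0.187% of 13926 genes were higher and 0.0287% lower. At an unadjusted p under 0.05 there were 5 members, Fyn, Pdgfrb, Pdgfra, Src and Ddr2, all higher, against 5.39% of genes higher and 4.8% lower. The median log2 fold change was 0.33 over the members and -0.0041 over all genes. Fyn differed most firmly, by 0.56 ± 0.126 (SE, unadjusted p = 0.000324, adjusted p = 0.0830, edgeR). Its adjusted p was 0.011 in DESeq2, 0.0335 without the low count filter and 0.0405 without D + Q sham mouse 1, whose Fyn level of 7.48 CPM lay inside the vehicle sham range. DESeq2 called 1 member, Fyn, among 133 genes of the whole table. Pdgfrb differed by 0.37 ± 0.110 (unadjusted p = 0.00369, adjusted p = 0.229). Yes1 (-0.18, interval -0.51 to 0.15) and Abl1 (-0.084, interval -0.26 to 0.092) lay on the lower side. Beside these values, all 8 fibro-adipogenic progenitor markers were on the higher side with D + Q in sham muscle, 4 of them at an unadjusted p under 0.05 and none at the adjusted threshold, and their sum ran from 470 to 719 CPM against 419 to 564 CPM. Beside Pdgfrb, 7 of 8 mural cell markers were on the higher side, 2 at an unadjusted p under 0.05, with sums of 647 to 765 CPM against 606 to 741 CPM. Endothelial markers gave 5 of 6 and 2, and tenocyte markers 4 of 4 and 3, and none of these lists held a call at the adjusted threshold. Of the 4 tenocyte markers, 1 would not have reached the count minimum on the vehicle mice alone. The part of these lists in the member values was not tested. Each comparison of D + Q with vehicle shares its mice with both MOV responses.

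Levels can be compared between kinases only per length, here as CPM per kilobase of exon. In vehicle sham muscle Abl1 came first at 4.27 ± 0.513 (SD, n = 5), then Ddr2 at 3.28 ± 0.614, Abl2 at 2.54 ± 0.137, Pdgfrb at 1.92 ± 0.226 and Pdgfra at 1.34 ± 0.257. Below them stood Lyn at 0.817 ± 0.243, Yes1 at 0.709 ± 0.167, Fyn at 0.561 ± 0.0737, Src at 0.468 ± 0.0775 and Kit at 0.0716 ± 0.0117. Neighbours in this order overlapped between mice, except that Abl2 was above Pdgfrb and Src above Kit in every mouse. D + Q sham muscle ran in the same order, apart from Fyn and Yes1, which traded places.

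In vehicle MOV muscle the order changed, with Pdgfrb at 5.04 ± 0.853 and Ddr2 at 4.92 ± 1.40 ahead of Abl1 at 3.47 ± 0.326. Pdgfra (2.88 ± 0.641), Lyn (2.34 ± 0.610), Abl2 (2.15 ± 0.229), Src (1.96 ± 0.176) and Fyn (1.76 ± 0.478) followed, each overlapping its neighbour. Yes1 (0.906 ± 0.0773) lay below every Fyn value and Kit (0.175 ± 0.0346) below every Yes1 value. In D + Q MOV muscle Ddr2 (6.34 ± 0.634) and Pdgfrb (5.76 ± 0.654) were above every Abl1 value (3.91 ± 0.122). This lead depends on the length used: with the longest or the canonical transcript in place of all exons, Abl1 came first in both MOV groups, because its exons sum to 14789 bases and its canonical transcript to 6470.

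**Figure D3:**
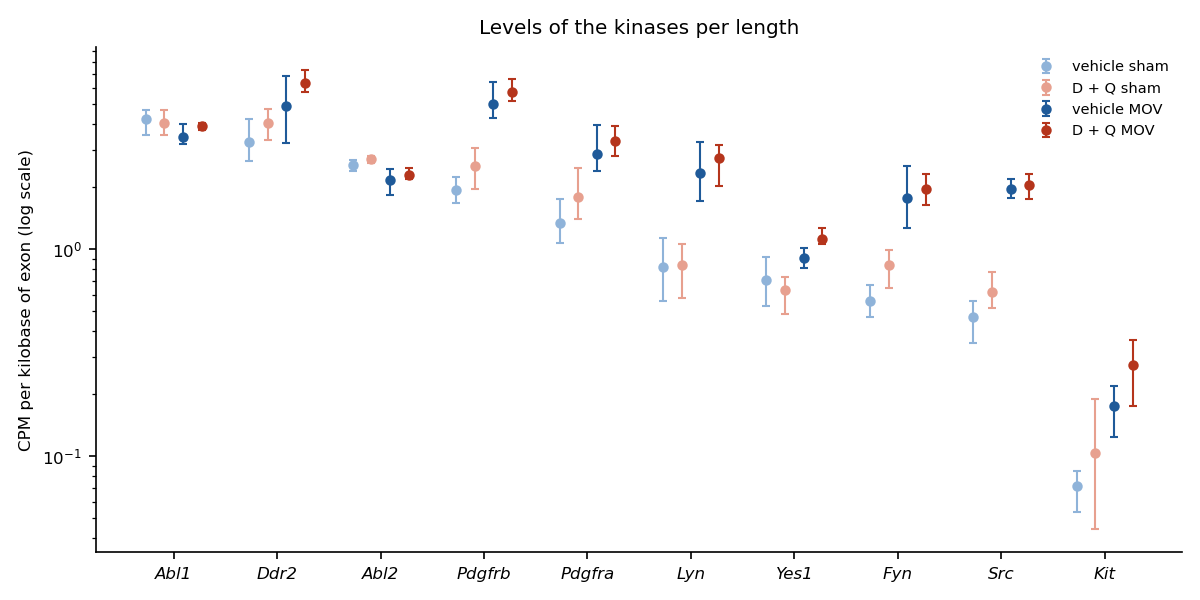
Group means of CPM per kilobase of exon on a log axis for the 10 kinases, ordered by their level in vehicle sham muscle, with whiskers from the lowest to the highest mouse (n = 5 per group). The 4 group means lay close together for Abl1 and for Abl2, while the means of Src, Fyn, Lyn, Yes1, Pdgfra, Pdgfrb, Kit and Ddr2 stood higher in both MOV groups than in both sham groups.

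The ligands of the receptors were taken as a list of 8: the PDGF chains Pdgfa, Pdgfb, Pdgfc and Pdgfd, the KIT ligand Kitl and the fibrillar collagen genes Col1a1, Col1a2 and Col3a1 that make ligands of DDR2. In vehicle mice 7 of 8 rose with MOV and none fell, where 30.7% of all genes tested were higher and 29.8% lower. Col1a1 rose from 48.3 ± 10.6 CPM (SD, n = 5) in vehicle sham to 2302 ± 469 CPM in vehicle MOV muscle, a log2 fold change of 5.58 ± 0.207 (adjusted p = 1.38e-09, edgeR). Col3a1 changed by 5.28 ± 0.235 and Col1a2 by 4.83 ± 0.212 on the same scale, so the collagen ligands rose far more than their receptor Ddr2. Pdgfc (1.65 ± 0.182) and Pdgfd (1.60 ± 0.229) rose more than Pdgfb (0.90 ± 0.123), although the difference between chains was not tested. Kitl changed by 0.32 ± 0.103 (adjusted p = 0.0145) and Pdgfa by -0.19 ± 0.0827 (adjusted p = 0.0534).

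With D + Q, 6 of 8 ligands rose with MOV, while Kitl (0.079, adjusted p = 0.510) and Pdgfa (-0.014, adjusted p = 0.888) did not pass in edgeR. Among all genes tested there, 34.4% were higher and 30.9% lower. Col1a1 changed by 5.09 ± 0.374, Col3a1 by 4.79 ± 0.404 and Col1a2 by 4.58 ± 0.273. Pdgfc changed by 1.59 ± 0.195, Pdgfd by 1.73 ± 0.178 and Pdgfb by 0.96 ± 0.103. For D + Q against vehicle, 0 of 8 passed the adjusted threshold in either surgery with edgeR or DESeq2, and 4 had an unadjusted p under 0.05 in each. All 4 were higher, against 4.19% of genes higher and 4.61% lower in MOV muscle and 5.39% and 4.8% in sham muscle. In MOV muscle Col1a1 differed by 0.36 ± 0.153, Col1a2 by 0.43 ± 0.150, Col3a1 by 0.45 ± 0.162, Pdgfc by 0.45 ± 0.156, Pdgfd by 0.33 ± 0.158, Pdgfb by 0.062 ± 0.123, Pdgfa by 0.046 ± 0.0780 and Kitl by -0.078 ± 0.114. The same quantity in sham muscle was 0.88 ± 0.337 for Col1a1, 0.71 ± 0.268 for Col1a2, 0.96 ± 0.370 for Col3a1, 0.54 ± 0.227 for Pdgfc, 0.23 ± 0.255 for Pdgfd, 0.035 ± 0.100 for Pdgfb, -0.10 ± 0.0857 for Pdgfa and 0.19 ± 0.0917 for Kitl. None of the 8 passed the interaction test at the adjusted threshold.

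A further 23 kinases known to bind dasatinib, among them the ephrin receptors, were tested for MOV where they reached the count minimum. Of 21 tested in vehicle mice 15 were called higher and 1 lower, where 30.7% of all genes tested were higher and 29.8% lower. This count is partly set by the count minimum of 10 reads in 5 mice: 8 of the 15 would not have reached it on the sham mice alone, and 5 of them (Lck, Frk, Ephb2, Btk and Epha3) had fewer than 10 reads in every vehicle sham mouse, so the share that rose is no result about the list. The 3 with the smallest p were ephrin receptors: Ephb3 (0.868 ± 0.267 to 13.7 ± 3.52 CPM, log2 fold change 3.99 ± 0.239), Ephb2 (0.228 ± 0.142 to 6.02 ± 2.46 CPM, 4.71 ± 0.387) and Epha3, whose vehicle sham counts were at most 3 in every mouse and whose vehicle MOV mean was 3.89 ± 0.530 CPM. All 3, Ephb3 with as few as 9 reads in a vehicle sham mouse, are among those 8, so their direction was favoured in advance. With D + Q, 17 of 20 tested were called higher and 2 lower, where 34.4% of all genes tested were higher and 30.9% lower. Of the 17, 7 would not have reached the minimum on the sham mice alone. The calls were led by Ephb2 (3.81 ± 0.233), Ephb3 (3.77 ± 0.230) and Csk (1.41 ± 0.119), the kinase that switches SRC family members off. Of these Ephb2, with as few as 8 reads in a D + Q sham mouse, is among those 7. Leaving out any 1 vehicle MOV mouse brought the 15 to 9 or 10, 9 without mouse 1 or mouse 3, since fewer of these low genes then passed the count minimum.

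Of the 15 regulators of SRC and ABL kinases 14 were tested with MOV. In vehicle mice 10 rose and 2 fell, led by Ptpn6 (2.76 ± 0.267), a phosphatase of blood cells, Pstpip1 (2.71 ± 0.255), an adaptor that brings a phosphatase to ABL, and Rin1 (2.63 ± 0.314), an ABL activator. With D + Q 11 rose and 3 fell, led by Ptpn6 (2.82 ± 0.199), Csk and the phosphatase Ptpn12 (1.31 ± 0.102). All 22 substrates and adaptors were tested, of which 12 rose and 4 fell with vehicle and 12 rose and 6 fell with D + Q. Beside the counts of both lists, 30.7% of all genes tested were higher and 29.8% lower with vehicle, and 34.4% and 30.9% with D + Q. The SRC and ABL substrate cortactin, Cttn, changed by 1.25 ± 0.0795 and 1.28 ± 0.0771 in vehicle and D + Q mice, the actin regulator Wasf2 by 0.98 ± 0.0727 and 0.95 ± 0.0696, and the transcription factor Stat5b by -1.43 ± 0.107 and -1.37 ± 0.0812. On the sham mice alone, 3 of the regulators called higher with vehicle and 2 with D + Q, and 1 substrate in each, would not have reached the count minimum. With vehicle they include Pstpip1 and Rin1, with as few as 9 and 7 reads in a vehicle sham mouse, so the direction of these was favoured in advance. Under scaling by total counts alone the regulators gave 12 higher and 0 lower with vehicle and 11 and 1 with D + Q, and the substrates 17 and 1 in both. That scaling moved the median log2 fold change of all genes to 0.362 with vehicle and 0.388 with D + Q, and the shares above do not belong to it. These counts are therefore no result about the lists. In D + Q against vehicle, 0 genes of these 3 lists passed the adjusted threshold in either surgery with edgeR or DESeq2. At an unadjusted p under 0.05 in MOV muscle, 1 of 22 other kinases, 1 of 14 regulators and 1 of 22 substrates were higher and 1 regulator was lower, against 4.19% of all genes higher and 4.61% lower. In sham muscle 3 of 14 other kinases, 2 of 13 regulators and 3 of 22 substrates were higher and 1 regulator and 1 substrate lower, against 5.39% and 4.8% of all genes.

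Markers of the cell types that carry these kinases also moved with MOV. Beside the counts of markers called here and in the next paragraph, 30.7% of all genes tested were higher and 29.8% lower with vehicle. With D + Q these shares were 34.4% and 30.9%. The muscle fiber markers summed to 124000 to 147000 CPM in the sham groups and 69300 to 89600 CPM in the MOV groups, so the tissue was muscle in every mouse. All 8 fibro-adipogenic progenitor markers rose in both treatments, and their sum went from 419 to 564 CPM in vehicle sham to 1010 to 2210 CPM in vehicle MOV muscle, and from 470 to 719 CPM to 1800 to 2190 CPM with D + Q. All 8 macrophage markers rose as well, from a sum of 29.8 to 74.2 CPM to 151 to 442 CPM with vehicle and from 31.6 to 69.0 CPM to 327 to 400 CPM with D + Q. These lists moved in the same direction as Pdgfra, Ddr2, Src, Fyn and Lyn, and their part in the member values was not tested.

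The mural cell markers moved in both directions beside Pdgfrb. Their sum was 606 to 741 CPM in vehicle sham and 561 to 655 CPM in vehicle MOV muscle, with 4 of 8 markers higher and 1 lower, and 647 to 765 CPM against 566 to 688 CPM with D + Q, with 4 higher and 2 lower. Abcc9 (326 ± 26.1 CPM in vehicle sham muscle) and Rgs5 (241 ± 25.4 CPM) make up most of that sum. Within the list Cspg4, the proteoglycan NG2, rose by 1.45 and 1.35 and Mcam by 0.91 and 0.92 on the log2 scale, while Abcc9, a potassium channel subunit, changed by -0.80 and -0.73, in vehicle and D + Q mice. The other markers, named after their values were seen, went in both directions. The smooth muscle actin Acta2 (1.91 and 1.65) and the receptor Notch3 (0.66 and 0.51) were called higher, and Kcnj8 was called lower with D + Q (-0.47). Kcnj8 with vehicle (-0.071), Rgs5 (-0.0015 and -0.042) and Myh11 (0.20 and -0.048) were not called. Beside Kit, the mast cell markers summed to 3.38 to 10.3 CPM in vehicle sham and 2.28 to 13.6 CPM in vehicle MOV muscle, and none of the 4 tested passed the threshold. With D + Q they summed to 4.95 to 9.04 CPM in sham and 10.5 to 13.4 CPM in MOV muscle, where 2 of 4 tested, Cma1 (0.78) and Cpa3 (0.95), rose. Cpa3 had as few as 9 reads in a D + Q sham mouse and would not have reached the count minimum on the sham mice alone. Endothelial markers rose in 4 of 6 with either treatment, satellite cell markers in 2 of 3 and 2 of 4 tested, and tenocyte markers in 4 of 4. With vehicle, 1 of these 4 tenocyte markers would not have reached the count minimum on the sham mice alone. Of 4 Schwann cell markers Sox10 rose in both (adjusted p = 0.0494 with vehicle and 0.0445 with D + Q, edgeR), and with D + Q Mbp fell. Sox10 counts were low, at 1 to 17 in vehicle sham, 7 to 36 in vehicle MOV, 2 to 14 in D + Q sham and 6 to 74 in D + Q MOV muscle.

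**Figure D4:**
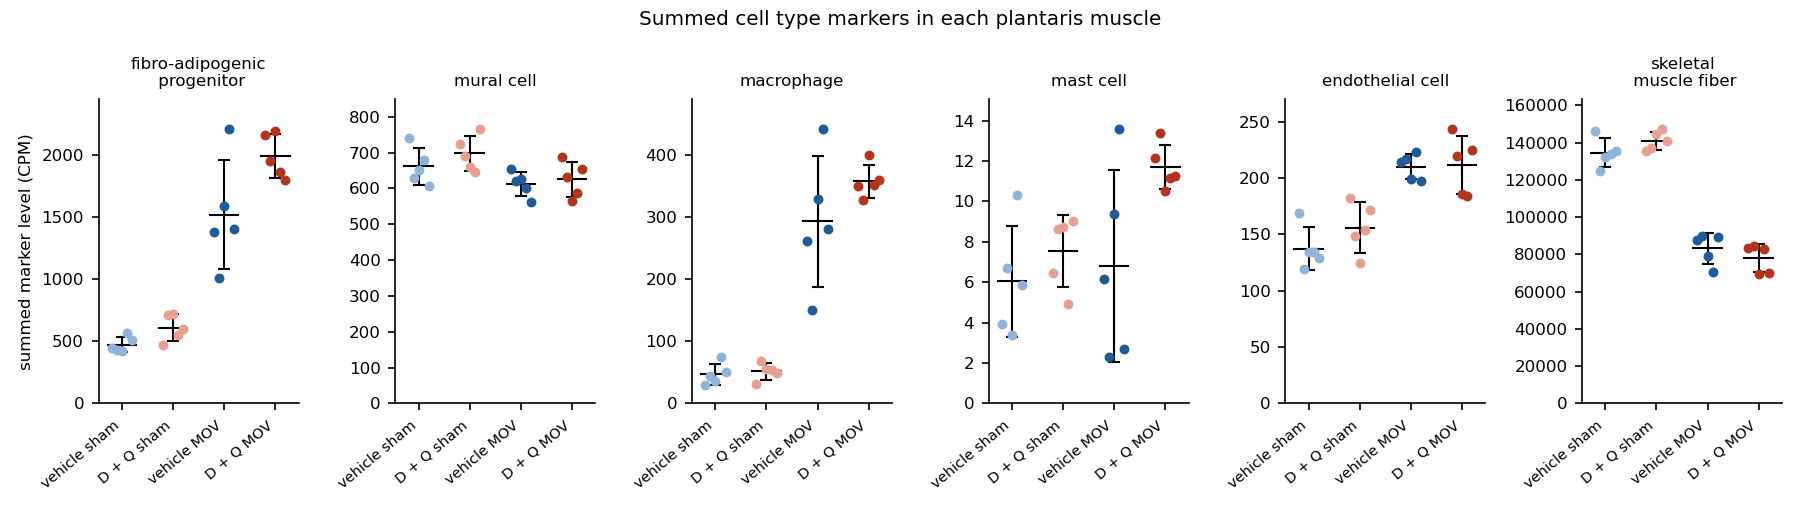
Summed CPM of 6 cell type marker lists in each mouse, on axes that start at 0, with bars for the mean and whiskers for the SD (n = 5 per group). The fibro-adipogenic progenitor and macrophage sums were higher in every MOV mouse than in every sham mouse, whereas the mural cell sums overlapped and the mast cell sums were spread from 2.28 to 13.6 CPM in vehicle MOV muscle.

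For each member, the genes whose level ran most nearly in parallel over the 20 mice were found by the SD of their log2 ratio to it, among genes with at least 10 counts in every mouse. The closest to Pdgfra was Dcn (SD 0.155), a proteoglycan gene of fibroblasts, followed by Notch2 and Plau. Ddr2 ran closest to Ntn1 (0.140), Adamts5 and Abca9, and Pdgfrb to Foxp1 (0.164), Coro1b and Mdfic. Among the SRC family, Src ran with Eef1a1 (0.198), Ahnak2 and Nbl1, Fyn with Fndc3b (0.182), Rhoj and Rap1b, Lyn with Nt5c (0.215), Dstn and Pip4k2a, and Yes1 with Cpne1 (0.193), Snx4 and Cggbp1. The SD was smallest for the kinases that moved least, Abl2 with Ddx21 (0.0802), Atf6 and Zc3h18, and Abl1 with Ctnnb1 (0.101), Nvl and Rnf130. Kit had no close match, with Adamtsl1 at 0.342, then Hmox1 and Serping1. Within the 10 members the nearest pairs were Abl1 with Abl2 (0.171), Fyn with Pdgfrb (0.252) and Pdgfra with Ddr2 (0.276). These SDs describe the 20 libraries, whose 2 surgeries set most of the spread.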

How the data were processed

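RNA of 20 plantaris muscles was analysed, 5 mice per group. Per the labels and methods, reads were aligned to GRCm39 with STAR 2.7.8a. The authors then estimated counts per gene by expectation-maximization in Partek Flow, and the deposited estimated counts are not normalized (29.8% of values are not whole). Every row sums to at least 10. No column was left unused. Totals were 17887532 to 26234518 counts per mouse, which limits precision for Kit most. No pair of libraries in a group agreed within sampling noise (ratio of observed to counting variance of 7.13 or more).

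Here counts were rounded and tested with edgeR 4.0.16 (R 4.3.3, quasi-likelihood, robust, TMM, at least 10 counts in at least 5 mice of the fit, Benjamini-Hochberg, threshold 0.05), with the 10 mice of a comparison in its fit and all 20 in that of the interaction. The whole table was fitted and the members' rows were read from it. The script was tested on simulated data. Ratios were tested by two-sided exact permutation (scipy 1.17.1). Alternatives were DESeq2 1.42.0, RLE factors, total counts alone, no low count filter, a replicate block, each mouse left out, and other gene lengths. Positions, lengths and coding sequences came from GENCODE vM39 on GRCm39, a later annotation than the authors'. The coding stretches of Lyn and Pdgfrb are not reported here.

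The members and lists were chosen with earlier results of these data known. Named genes are the 10 members, the ligands, the 3 genes of a list with the smallest p among those called, and the 3 genes most parallel to a member. Csk and Csf1r each stand in 2 lists.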

Additional observations from a re-analysis of the deposited data

Results flagged for a closer look

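In groups of 5 mice, the highest or lowest mouse was compared with its nearest neighbour by Dixon's ratio of gap to range, over 48 groups of values of the members and their ratios. Chance marks about 1 in 20 groups, and 4 were marked. Yes1 in D + Q MOV muscle reached 17.2 CPM in mouse 1, where the gap was 0.747 of the range. Abl1 in vehicle MOV muscle reached 59.5 CPM in mouse 3 (0.714), and Pdgfra in the same group reached 49.2 CPM in mouse 4 (0.765). The log2 ratio of Pdgfra to Pdgfrb in D + Q sham muscle was 0.941 in mouse 3 (0.861), which held the highest Pdgfra (30.2 CPM) and the lowest Pdgfrb (15.7 CPM) of its group. Without that mouse the ratio's difference from vehicle sham muscle went from 0.015 to -0.20 on the log2 scale.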

How the results depend on the processing

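Under total counts alone the members lower with MOV went from 2 to 0 with vehicle and from 1 to 0 with D + Q. Abl1 reversed to 0.088 with vehicle (adjusted p = 0.454, edgeR) and 0.34 with D + Q (0.000322), and Abl2 to 0.14 with vehicle (0.110) and 0.14 with D + Q (0.0473). Relative to that scaling's median of all genes, 0.362 and 0.388, all 4 were lower. In D + Q against vehicle sham muscle, members higher went from 0 to 1, Fyn, in DESeq2 and without the low count filter, and ran from 0 to 1 over mice left out. RLE factors and DESeq2 kept the direction of all 50 member values, and DESeq2 gave Kit no adjusted p in sham muscle.

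With each mouse left out, members higher with MOV in vehicle mice ran from 6 to 8 and lower from 1 to 2. Members higher in D + Q mice stayed at 8 and lower at 1. Values near 0 changed sign: Lyn with D + Q in sham muscle (-0.086 to 0.15), Abl1 with MOV in D + Q mice (-0.067 to 0.033), and the interactions of Abl2 (-0.081 to 0.020), Kit (-0.074 to 0.46) and Ddr2 (-0.073 to 0.21). The log2 ratio of Abl2 to Abl1 between vehicle MOV and sham muscle ran from -0.023 to 0.12, and between D + Q MOV and sham muscle from -0.29 to -0.17, losing p under 0.05 without 8 of the 10 mice. The ratio of Pdgfra to Pdgfrb ran from -0.046 to 0.079 for D + Q in MOV muscle, from -0.20 to 0.11 for D + Q in sham muscle and from -0.38 to -0.19 for MOV in vehicle mice, where it passed without vehicle sham mouse 3. The cause of these changes was not tested.

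Replicate numbers did not pair the mice: same-numbered deviations correlated at -0.15 to 0.185 over 20 pairs, 2 of them over 0.1, and 3 correlated best with their own number. With the replicate block all 50 member calls were kept, and the Abl2 to Abl1 ratio in D + Q mice (-0.21) went to p = 0.0625 in the exact permutation test, the smallest that 5 signed differences allow. Longest and canonical transcripts, the latter chosen after seeing the data, kept 39 to 43 of 45 pairs of members in order.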
